A study of Mus musculus with 10 samples.

Results

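The RNA of 10 genes that mark the retinal pigment epithelium (RPE) or melanin formation was followed in neural retinas of albino mice kept in normal light (NL) or exposed to light damage (LD). They were *Best1*, *Ttr*, *Rgr*, *Stra6*, *Tyr*, *Tyrp1*, *Dct*, *Pmel*, *Mlana* and *Slc45a2*, taken by their symbols as the 10 matching genes of the 54532 in the deposited expression table. Retinal RNA was sequenced from BALB/c mice, an inbred albino strain described as Tyr c/Tyr c with wild-type *Rpe65*, so that every animal in both groups carried the same non-functional tyrosinase allele. The mice were 2 months old and were first adapted to darkness for 12 hr, after which 5 were held at 200 lux (NL) and 5 at 15000 lux (LD) for 1 day. The labels name no other allele, transgene or agent for either group, nor whether a library holds 1 retina or several, and each library is called a retina here. The genes were measured in fragments per kilobase of transcript, scaled to the mapped fragments of the library (FPKM).

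The RPE is a pigmented sheet that lies behind the photoreceptors, where it regenerates the visual chromophore, transports ions and nutrients and engulfs shed photoreceptor tips. In the pigment cells of the eye, melanin is made inside melanosomes, organelles built on a fibrillar scaffold to which enzymes and transporters are then delivered. Lack of tyrosinase activity stops melanin formation but leaves the cells themselves in place. The neural retina is separated from the RPE at dissection, and markers of both are therefore given below for each retina.

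The promoters of the 3 tyrosinase-family genes are shown because they share one short motif, which belongs to the E-box type bound by MITF, the transcription factor of pigment cells. The letters TCATGTG or, on the other strand, CACATGA were searched in the 250 bases before each RefSeq transcription start (GRCm38.p6). The motif contains the shorter core CATGTG, so both counts overlap. Windows were given for 6 of the 10 genes (*Best1*, *Rgr*, *Stra6*, *Tyr*, *Tyrp1* and *Dct*), and *Ttr*, *Pmel*, *Mlana* and *Slc45a2* had no entry. The motif was found in *Tyr*, *Tyrp1* and *Dct*, and in 1068 of all 32851 windows (3.25%), while the core alone was found in 4025 windows (12.3%). The 30 bases around the motif copy nearest the start run 5′ to 3′ along the strand of each gene, with the motif in capitals.
*Tyr*, chr7:87493516-87493545, minus strand: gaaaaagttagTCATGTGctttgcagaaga
*Tyrp1*, chr4:80834155-80834184, plus strand: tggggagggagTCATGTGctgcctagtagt
*Dct*, chr14:118052379-118052408, minus strand: tgcacttagggTCATGTGctaacaaagagg
Counted back from the start, with -1 as the base just before it, the motif began at -22 in *Tyr*, at -47 in *Tyrp1* and at -151 in *Dct*. The bases printed for *Tyrp1* lie inside the gene as placed in the deposited data (80834123 to 80851719), so they are upstream of the RefSeq start only. The full upstream window of *Dct* (chr14:118052247-118052496, minus strand) held a further copy on the other strand, also in capitals.
*Dct* upstream: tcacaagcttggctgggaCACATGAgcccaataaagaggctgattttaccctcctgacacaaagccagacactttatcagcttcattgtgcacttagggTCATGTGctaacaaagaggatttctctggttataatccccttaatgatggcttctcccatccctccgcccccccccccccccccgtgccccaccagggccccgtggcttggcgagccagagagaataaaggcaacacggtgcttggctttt
A match describes the letters in these windows and is not evidence of binding, and no binding was measured in these retinas.

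Each retina had between 18965090 and 26832535 reads in genes, and NL-8 was the deepest library. One chi-square comparison of reads per gene put 3 pairs of retinas of the same group much closer than the rest, NL-5 with NL-7 (2.71 per gene), LD-1 with LD-7 (3.41) and LD-4 with LD-6 (2.52), against 10.9 to 38.5 for the other 17 pairs. Nothing in the labels says that these retinas shared an animal, and they were kept as separate samples, so that the p-values measure only the spread between these 5 and 5 retinas. *Gnat1*, the transducin subunit of rods, marked the tissue as neural retina at 2431 to 3119 FPKM in NL and 274 to 653 FPKM in LD. The labels give no batch, date or order of dissection, so no value within a batch could be given.

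By mean level over the 10 retinas, the order was *Ttr* (63.0 FPKM), *Rgr* (7.29), *Dct* (3.34), *Stra6* (1.99), *Tyrp1* (1.90), *Pmel* (1.63), *Mlana* (1.05), *Best1* (0.378), *Slc45a2* (0.275) and *Tyr* (0.198). The range of *Ttr* over retinas lay wholly above that of *Rgr*. From *Rgr* downward, each gene's range overlapped that of the next, and the order of these neighbours was within the spread between retinas when the retinas were not matched. Within the same retina, *Rgr* was above *Dct* in 10 of 10, *Dct* above *Stra6* and *Stra6* above *Tyrp1* in 8 each, and *Tyrp1* above *Pmel* and *Slc45a2* above *Tyr* in 6 each. The number of reads behind the values differed widely, from 927 to 3076 reads of *Ttr* per retina to 1 to 68 reads of *Mlana*, and the lowest levels rest on few reads.

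**Figure D1:**
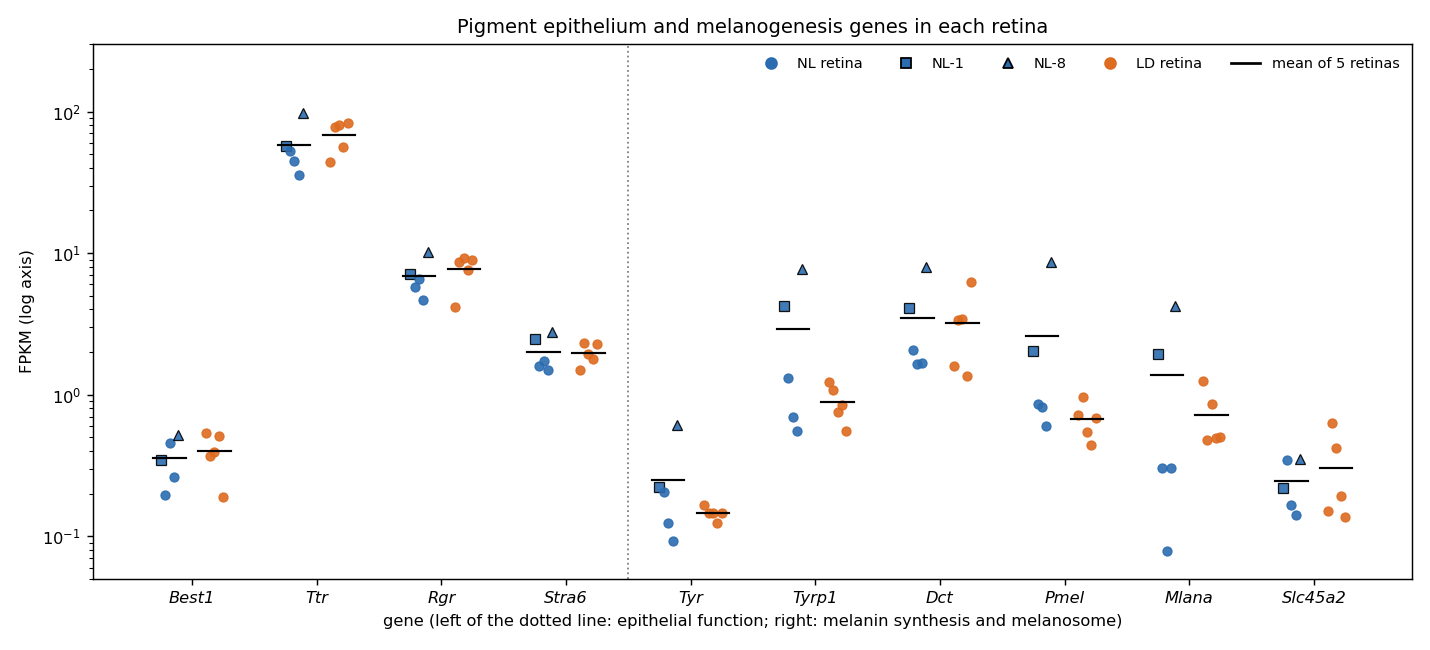
Level of each gene in each retina, in FPKM on a log axis, with 5 NL retinas in blue, 5 LD retinas in orange and black lines at the group means. NL-8 (triangle) is the highest NL retina for all 10 genes, and the NL and LD points overlap for each gene.

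*Ttr* encodes transthyretin, a carrier of thyroid hormone, and was the most abundant of the genes (chromosome 18, 20665250 to 20674324, GRCm38). Its level was 57.2, 52.7, 44.6, 35.8 and 97.8 FPKM in NL-1, NL-4, NL-5, NL-7 and NL-8, and 44.0, 77.7, 80.9, 56.4 and 82.7 FPKM in LD-1, LD-4, LD-6, LD-7 and LD-8. NL-8 was above every LD retina, and the other NL retinas lay in or below the lower part of the LD range. The means were 57.6 ± 23.9 (SD, n = 5) in NL and 68.3 ± 17.2 (n = 5) in LD, a log2 difference of 0.29 ± 0.26 (SE; 95% interval -0.30 to 0.87; limma, adjusted p = 0.467). All log2 differences here are LD minus NL on log2(FPKM + 0.1), which understates the change of low genes, and adjusted p-values are Benjamini-Hochberg values over the 24508 genes tested. In bulk tissue such as this, fewer cells of a type and less RNA per cell cannot be told apart.

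*Rgr* (chromosome 14, 37034909 to 37048964) encodes an opsin of the RPE and Müller glia that takes part in the photic recycling of retinoids. It stood at 7.12, 5.75, 6.54, 4.63 and 10.2 FPKM in the NL retinas, in the order given for *Ttr*, and at 4.19, 8.66, 9.28, 7.64 and 8.88 FPKM in the LD retinas. The lowest value was in LD-1 and the highest in NL-8, and the groups overlapped throughout. The log2 difference was 0.17 ± 0.25 (SE; 95% interval -0.38 to 0.72; limma, adjusted p = 0.665).

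*Stra6* (chromosome 9, 58063788 to 58153996) encodes the membrane receptor through which the RPE takes up retinol. Its values were 2.48, 1.60, 1.73, 1.49 and 2.77 FPKM in NL and 1.50, 2.33, 1.92, 1.79 and 2.29 FPKM in LD. NL-8 and NL-1 were above all LD retinas, while the other 3 NL retinas were in or just under the LD range. The means of 2.01 ± 0.575 and 1.97 ± 0.348 FPKM (SD, n = 5 each) gave the narrowest interval of the 10 genes, a log2 difference of -0.01 with a 95% interval of -0.43 to 0.42 (limma, adjusted p = 0.982). *Ccdc33* lies across much of *Stra6* on the other strand but reached no more than 0.0369 FPKM.

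*Best1* (chromosome 19, 9985174 to 10001633) encodes bestrophin-1, a calcium-activated chloride channel of the basolateral RPE membrane. Its levels were low, 0.348, 0.197, 0.458, 0.263 and 0.522 FPKM in NL and 0.534, 0.367, 0.395, 0.510 and 0.188 FPKM in LD, each from 9 to 29 reads. The LD retinas held both the highest value (LD-1) and the lowest (LD-8). The log2 difference of 0.12 ± 0.28 (SE) had a 95% interval from -0.50 to 0.74 (limma, adjusted p = 0.790).

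Among the genes of melanin synthesis, *Tyr* (chromosome 7, 87424771 to 87493512) encodes tyrosinase, which catalyses the first step of the pathway and carries the albino allele in this strain. It was detected in all 10 retinas, at 0.224, 0.205, 0.125, 0.0928 and 0.605 FPKM in NL and at 0.167, 0.146, 0.145, 0.124 and 0.145 FPKM in LD. NL-8, with 111 reads, was above all others, whereas the LD retinas lay within 20 to 29 reads of the gene. The means were 0.250 ± 0.206 and 0.145 ± 0.0155 FPKM (SD, n = 5 each), with a log2 difference of -0.36 ± 0.32 (SE; 95% interval -1.06 to 0.35; limma, adjusted p = 0.458).

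*Tyrp1* (chromosome 4, 80834123 to 80851719) encodes tyrosinase-related protein 1, a melanosomal enzyme that acts late in eumelanin synthesis. It stood at 4.23, 1.32, 0.697, 0.550 and 7.70 FPKM in NL and at 1.23, 1.08, 0.759, 0.838 and 0.556 FPKM in LD. NL-8 and NL-1 were far above the other 8 retinas, and NL-5 and NL-7 were as low as the lower LD retinas. The NL mean of 2.90 ± 3.07 FPKM thus had an SD as large as itself, against 0.893 ± 0.267 FPKM in LD (SD, n = 5 each). The log2 difference of -0.98 ± 0.64 (SE; 95% interval -2.39 to 0.43) did not pass the test (limma, adjusted p = 0.295).

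*Dct* (chromosome 14, 118012790 to 118052244) encodes dopachrome tautomerase, the enzyme between the steps of tyrosinase and *Tyrp1*. Its values were 4.12, 2.08, 1.65, 1.66 and 7.97 FPKM in NL and 1.59, 3.37, 3.44, 1.36 and 6.20 FPKM in LD. Unlike *Tyrp1*, *Dct* was also high in an LD retina, LD-8, and the groups covered nearly the same range. The log2 difference was -0.05 ± 0.51 (SE; 95% interval -1.18 to 1.08; limma, adjusted p = 0.957).

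*Pmel* (chromosome 10, 128704195 to 128720238) encodes the protein that forms the fibrils of the melanosome. It was at 2.02, 0.863, 0.817, 0.596 and 8.69 FPKM in NL and at 0.716, 0.968, 0.546, 0.441 and 0.686 FPKM in LD. NL-8 exceeded the next retina, NL-1, more than 4-fold, and the other 3 NL retinas lay inside the LD range. *Pmel* had the largest difference of the 10 genes in size, -1.12 ± 0.61 on the log2 scale (SE; 95% interval -2.46 to 0.23), and did not pass the test (limma, adjusted p = 0.208). *Pmel* overlaps *Dgka* by 105 bases and *Cdk2* by 837 bases, both on the other strand and listed at up to 2.66 and 1.16 FPKM, and whether counting used strand is not given in the sources used here.

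*Mlana* (chromosome 19, 29697921 to 29708448) encodes MART-1, a melanosome membrane protein that interacts with the product of *Pmel*. Its NL values were 1.95, 0.302, 0.0791, 0.302 and 4.23 FPKM, the lowest of them from 1 read, and its LD values were 1.25, 0.475, 0.861, 0.493 and 0.505 FPKM. NL-8 and NL-1 were above all LD retinas, and the other 3 NL retinas were below all LD retinas. The log2 difference of 0.01 ± 0.78 (SE) thus had the widest interval of the 10 genes, from -1.72 to 1.74 (limma, adjusted p = 0.994).

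*Slc45a2* (chromosome 15, 11000721 to 11029233) encodes a melanosomal transporter needed for full pigmentation. It was at 0.219, 0.347, 0.165, 0.142 and 0.351 FPKM in NL and at 0.151, 0.628, 0.420, 0.191 and 0.136 FPKM in LD, from 9 to 38 reads per retina. Its highest values were in LD-4 and LD-6, and the groups overlapped. The log2 difference was 0.13 ± 0.35 (SE; 95% interval -0.65 to 0.91; limma, adjusted p = 0.823).

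All 10 genes passed the filter on low values, and none was called changed at an adjusted p under 0.01 with more than a 2-fold difference, a call that 6.51% of all genes tested reached (1595 of 24508; 4.13% higher and 2.37% lower in LD). At an adjusted p under 0.05 without a fold limit, 0 of the 10 passed against 27.8% of all genes, and at an unadjusted p under 0.05, 0 of the 10 passed against 38.2% (limma). With limma-voom on the reads recovered from the FPKM values, 0 of the 10 were called and 0 had an unadjusted p under 0.05. The groups overlapped in all 10 genes, while they did not overlap in 22.4% of all genes tested. The 2-sided exact permutation test over retinas, whose smallest possible p is 0.00794, gave p-values between 0.111 (*Pmel*) and 0.984 (*Mlana*). The median log2 difference was 0.15 over the 4 epithelial genes and -0.20 over the 6 melanin genes, beside -0.01 over all genes tested. The melanin median turned to 0.09 when NL-8 alone was left out, while the epithelial median went to 0.29. Without the factor per library that the deposited values contain, the median of all genes shifted by 0.12 on the log2 scale toward LD, and *Stra6* (0.12) and *Dct* (0.08) changed sign. A p that misses the threshold does not show that levels were equal. On the scale of the fit, a 2-fold fall lay inside the interval of *Tyr*, *Tyrp1*, *Dct*, *Pmel* and *Mlana*, and a 2-fold rise inside that of *Dct* and *Mlana*, whereas for *Best1*, *Ttr*, *Rgr*, *Stra6* and *Slc45a2* a 2-fold change in either direction lay outside it.

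**Figure D2:**
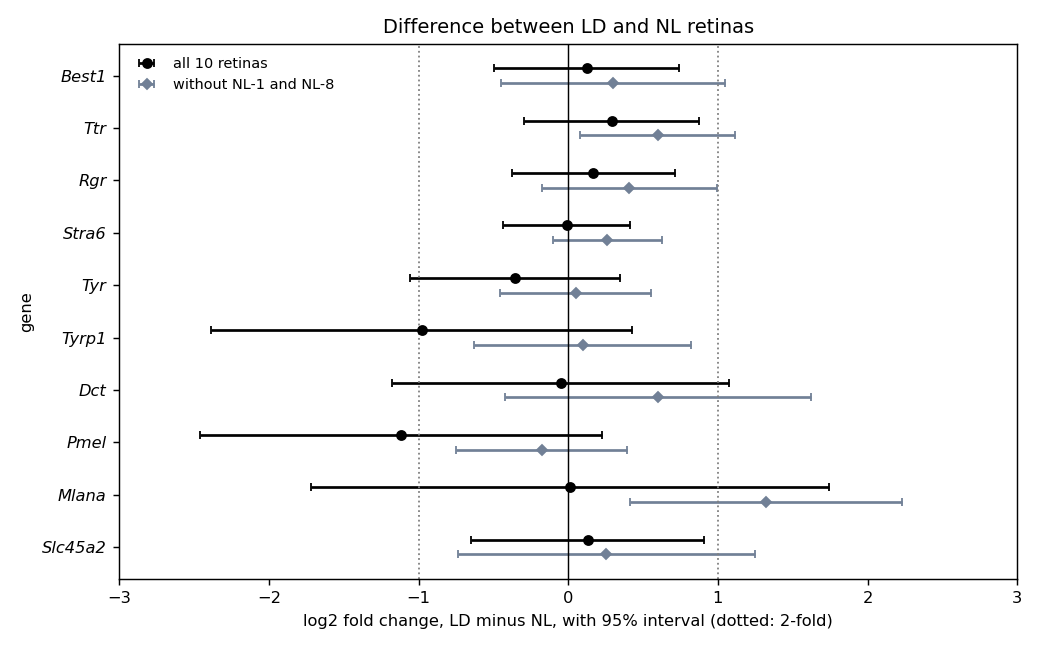
Log2 difference (LD minus NL) of each gene with its 95% interval from limma, for all 10 retinas (black) and without NL-1 and NL-8 (grey); dotted lines mark a 2-fold change. With all 10 retinas every interval includes 0, and the melanin genes *Tyrp1*, *Dct*, *Pmel* and *Mlana* have the widest ones.

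The spread between retinas of 1 group was larger than for most genes, and largest for the melanosome genes. The pooled SD within groups on the log2 scale was 1.40 for *Mlana*, 1.14 for *Tyrp1*, 1.08 for *Pmel* and 0.91 for *Dct*, beside a median of 0.25 over all genes tested. These 4 genes lay at the 97.3, 95.6, 95.1 and 92.6 percentile of all genes tested. The other 6 lay between the 60.6 percentile (*Stra6*, 0.32) and the 82.3 percentile (*Slc45a2*, 0.59). Among the 15604 genes whose mean reached 1 FPKM, the same 4 genes lay at percentiles from 97.0 to 98.5, *Ttr* at 90.01, *Rgr* at 88.7 and *Stra6* at 80.9. *Tyrp1*, *Pmel* and *Mlana* reached that mean only through NL-1 and NL-8. Without these retinas their NL means were 0.854, 0.758 and 0.228 FPKM, beside LD means of 0.893, 0.671 and 0.717 FPKM. The retinas that carried them past the limit also held their highest NL values, so their place among these genes adds no separate support.

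The NL group held most of that spread for *Tyr*, *Tyrp1*, *Pmel* and *Mlana*. Their SDs on the log2 scale were 0.72, 1.56, 1.49 and 1.90 in NL and 0.09, 0.40, 0.37 and 0.55 in LD, while *Dct* spread about equally in both groups (0.96 and 0.87). From the lowest to the highest NL retina, *Tyrp1* ranged 14.0-fold, *Pmel* 14.6-fold, *Tyr* 6.52-fold and *Dct* 4.84-fold. In LD the same genes ranged 2.22-fold, 2.20-fold, 1.35-fold and 4.58-fold. Reads that vary by counting alone would have a variance equal to their mean. In NL the variance exceeded the mean 204 times for *Tyrp1*, 233 times for *Pmel*, 273 times for *Dct* and 26.7 times for *Tyr*. In LD the variance was 0.26 times the mean for *Tyr*, 3.02 times for *Pmel* and 5.01 times for *Tyrp1*, but 155 times for *Dct*. Among the epithelial genes it was 268 times in NL and 117 times in LD for *Ttr*, 68.2 and 58.9 times for *Rgr*, 21.2 and 7.98 times for *Stra6*, and 2.41 and 2.28 times for *Best1*. This ratio grows with the number of reads, so *Ttr*, with the most reads, was above *Tyrp1* in NL although its spread on the log2 scale was smaller.

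**Figure D3:**
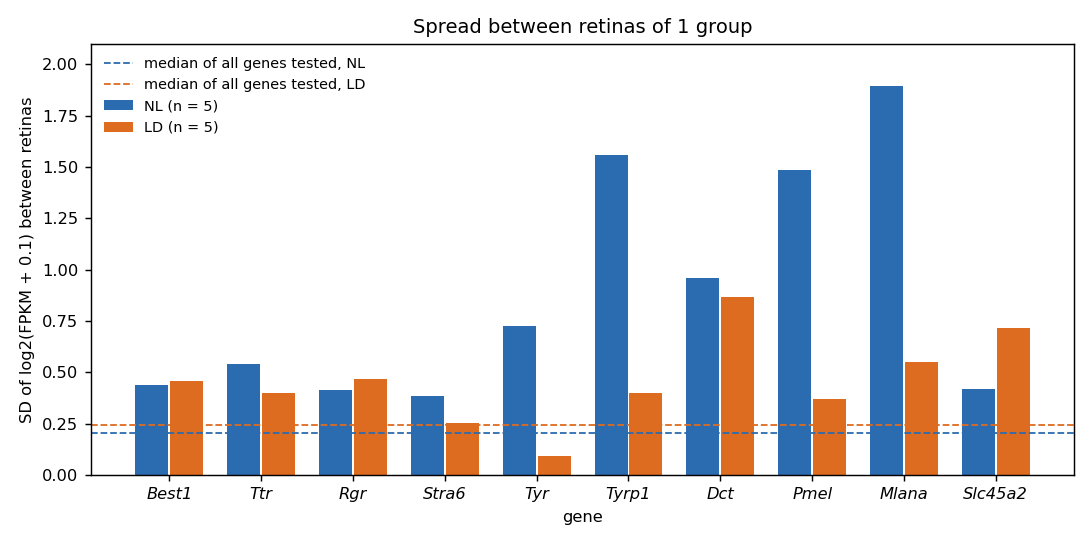
SD of log2(FPKM + 0.1) between the 5 retinas of each group, as bars for NL (blue) and LD (orange), with dashed lines at the median SD of all genes tested in each group. The NL bars of *Mlana*, *Tyrp1* and *Pmel* reach 1.90, 1.56 and 1.49, above 3 times the LD bars of the same genes.

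One retina, NL-8, carried the highest NL value in 10 of 10 genes, a position it held in 21% of all genes tested. NL-1 came next in 8 of them (*Ttr*, *Rgr*, *Stra6*, *Tyr*, *Tyrp1*, *Dct*, *Pmel* and *Mlana*), and this order of NL-8 and NL-1 was found in 8.19% of all genes tested. NL-8 was also the highest of all 10 retinas in 8 genes, against 10.7% of all genes tested, the exceptions being *Best1* (LD-1) and *Slc45a2* (LD-4). The excess differed between the genes. Relative to the median NL retina, NL-8 was 1.86-fold higher for *Ttr*, 1.60-fold for *Stra6*, 1.56-fold for *Rgr* and 1.50-fold for *Best1*, but 14.0-fold for *Mlana*, 10.1-fold for *Pmel*, 5.86-fold for *Tyrp1*, 3.84-fold for *Dct* and 2.95-fold for *Tyr*. *Slc45a2*, at 1.60-fold, was as little raised as the epithelial genes. NL-1 showed the same order in part, with 6.45-fold for *Mlana*, 3.22-fold for *Tyrp1* and 2.34-fold for *Pmel* against 1.08-fold for *Ttr* and 1.09-fold for *Rgr*. It was not raised in all melanin genes more than in the epithelial ones, with 1.09-fold for *Tyr* and 1.00-fold for *Slc45a2* beside 1.43-fold for *Stra6*.

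**Figure D4:**
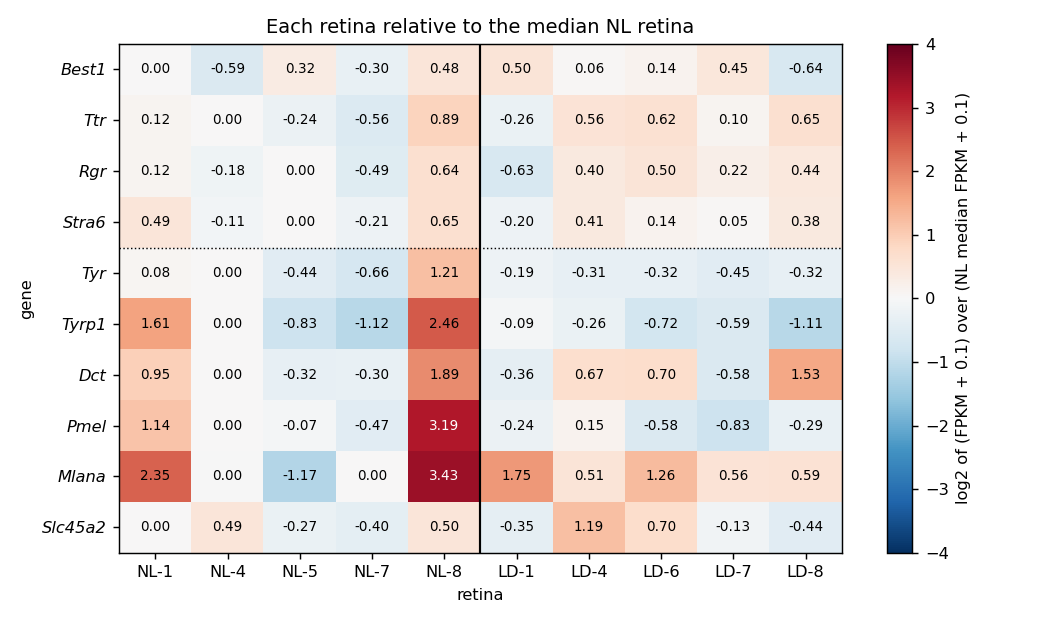
Log2 of each gene's level over that of the median NL retina, with genes in rows and retinas in columns. NL-8 reaches 3.43 for *Mlana*, 3.19 for *Pmel* and 2.46 for *Tyrp1*, while no LD retina exceeds 1.75 in any of the 10 genes.

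Among the LD retinas the ordering was another one. *Ttr*, *Rgr*, *Stra6* and *Dct* were higher in LD-4, LD-6 and LD-8 than in LD-1 and LD-7, an arrangement found in 19.9% of all genes tested, and it follows the close pairs LD-4 with LD-6 and LD-1 with LD-7. *Tyrp1* did not share it, with its highest LD values in LD-1 and LD-4 and its lowest in LD-8. The ratio of *Dct* to *Tyrp1* therefore ran from 1.29 to 11.2 over the LD group, the highest in LD-8, and from 0.973 to 3.02 over the NL retinas, with 1.03 in NL-8. The ratio of *Ttr* to *Rgr* stayed within 6.83 to 10.5 over all 10 retinas. Summed over the 6 melanin genes, the level was 3.34 to 29.6 FPKM in NL and 3.44 to 8.23 FPKM in LD.

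Taken as deviations from the group mean on the log2 scale over the 10 retinas, *Ttr*, *Rgr*, *Stra6* and *Dct* moved together, with Pearson r of 0.92 for *Ttr* with *Rgr*, 0.88 for *Ttr* with *Stra6* and 0.90 for *Ttr* with *Dct*. The lowest r among these 4 was 0.76 (*Rgr* with *Dct*). *Tyr*, *Tyrp1*, *Pmel* and *Mlana* also moved together, with r from 0.84 (*Tyr* with *Mlana*, *Pmel* with *Mlana*) to 0.95 (*Tyr* with *Pmel*). The 2 sets were not separate, since *Pmel* had an r of 0.81 with *Stra6*, 0.78 with *Ttr* and 0.77 with *Dct*, and *Tyr* one of 0.77 with *Ttr*. *Best1* was less close to either, at -0.02 with *Ttr* and 0.46 with *Tyrp1*. All pairs share the same 10 libraries, and NL-8 and NL-1 weigh heavily in the second set, so these values describe these retinas and no more.

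For the members with a mean of 1 FPKM or more, the 3 genes with the most similar deviations were sought among 12427 protein-coding genes of at least that mean, a search wide enough that the values describe likeness only. *Ttr* was most like *Slc6a20a* (r = 0.98 over 10 retinas, 0.96 over the 8 without NL-1 and NL-8), and next came *Cltrn* and *Fam13a*. *Stra6* was most like *Col8a1* (0.95, and 0.91 over 8), a collagen of basement membranes. *Slc6a20a* and *Col8a1* both belong to the list of further RPE genes described below. For *Rgr* the nearest was *Pltp* (0.96, and 0.97 over 8), for *Dct* it was *Nwd1* (0.94, and 0.95 over 8), and for *Tyrp1* it was *Col25a1* (0.98, and 0.84 over 8). The likeness of *Pmel* to *Itgb8* fell from 0.97 to 0.67 without NL-1 and NL-8, and that of *Mlana* to *Thbs1* from 0.97 to 0.78. None of the nearest genes so found was one of the 10.

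Further genes of the RPE gave the members a wider frame. Of 22 listed RPE genes outside the 10, all were tested, 2 were called higher in LD and 0 lower (4.13% and 2.37% of all genes tested), with a median log2 difference of 0.17. At an adjusted p under 0.05 without a fold limit, 5 were higher and 2 lower, while 27.8% of all genes tested passed that limit in either direction. The higher ones included *Slc6a20a* (0.86, limma, adjusted p = 0.0202), *Itgav* (0.82, adjusted p = 0.000542) and *Mertk* (0.67, adjusted p = 0.0091). The lower ones were *Enpp2* (-0.76, limma, adjusted p = 0.00604) and *Tspan10* (-0.73, adjusted p = 0.0119). All of these were named after their values were seen. Among those called was *Cdh3*, P-cadherin, at 0.503 ± 0.134 FPKM in NL and 1.85 ± 0.558 in LD (SD, n = 5 each; log2 difference 1.67, limma, adjusted p = 0.000461). *Rpe65*, the isomerase of the RPE visual cycle, was at 17.2, 7.74, 11.8, 7.04 and 20.7 FPKM in NL and 5.20, 5.84, 5.22, 6.86 and 13.7 FPKM in LD. NL-8 and NL-1 were again its highest NL retinas and LD-8 its highest LD retina, and its log2 difference of -0.78 ± 0.35 (SE) did not pass the test (limma, adjusted p = 0.128). *Lrat* (0.45, adjusted p = 0.187), *Rlbp1*, which Müller glia share (-0.52, adjusted p = 0.109), and *Mitf* (-0.11, adjusted p = 0.503) did not pass it either.

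The 23 further pigmentation genes serve melanosome transport, sorting and ion balance, some of them in many cell types. Of these 23 genes, 0 were called in either direction with limma, and the median log2 difference was -0.05. At an adjusted p under 0.05 without a fold limit, 6 were higher in LD and 1 was lower, a share near the 27.8% of all genes tested that passed that limit. The largest of these differences, picked out after the values were seen, were those of *Gpnmb*, a lysosomal and melanosomal glycoprotein also made by macrophages (log2 difference 1.53, limma, adjusted p = 0.033), and *Rab32*, a GTPase of melanosome traffic (0.96, adjusted p = 0.0101).

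Markers of other tissue moved with NL-1 and NL-8 as well. NL-1 and NL-8 were the top NL retinas, in either order, for 3 of the 4 epithelial genes and 5 of the 6 melanin genes, for 13 of the 22 other RPE genes (59.1%), 9 of the 23 other pigmentation genes (39.1%), 4 of 5 ciliary body and iris genes and 4 of 8 genes of the choroid and sclera stroma, and for 16.3% of all genes tested. For 6 Müller glia genes the count was 2, for 8 rod and neural genes 2, for 4 blood genes with reads 0 and for 5 lens genes 0.

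The ciliary body and iris genes, *Wfdc1*, *Slc4a5*, *Cldn2*, *Des* and *Myl9*, summed to 29.7 FPKM in NL-1 and 31.1 in NL-8, against 12.7 to 14.3 in NL-4, NL-5 and NL-7 and 14.0 to 20.8 under LD. Of them, *Cldn2* stood at 1.88 and 1.94 FPKM in NL-1 and NL-8 and at 0.133 to 0.792 in the other 8 retinas. *Slc4a5* was also highest in NL-1 and NL-8 (15.5 and 19.3 FPKM). *Wfdc1* was highest in NL-1 (8.23 FPKM), but LD-6 (6.16) and LD-7 (5.11) were above NL-8 (5.01). *Myl9* was highest in NL-8 (4.30 FPKM), but LD-6 (4.23) and LD-4 (3.73) were above NL-1 (3.54). *Des* was highest in NL-4 (0.602 FPKM), against 0.486 in NL-1 and 0.485 in NL-8. The stroma genes summed to 6.78 and 8.73 FPKM in NL-1 and NL-8, against 3.20 to 3.84 in the other NL retinas and 2.86 to 5.16 in LD. The matrix gene *Dcn* had 104 and 81 reads in NL-1 and NL-8 and 0 to 7 in the others, and *Lum* had 25 and 20 reads and 0 or 1 in the others. The collagens of the list followed them only in part. *Col1a2* was highest in NL-1 (427 reads) and next among the NL retinas in NL-8 (296), with 138 to 389 reads in LD. *Col1a1* was highest in LD-4 (61 reads, against 54 in NL-1 and 37 in NL-8). *Col3a1* had 31 reads in NL-1 and 30 in LD-4, but 8 in NL-8. The smooth muscle genes *Acta2* (3.57 FPKM) and *Myh11* (1.05 FPKM) were high in NL-8 alone. These single genes were picked out after their values were seen, and the part of such tissue in the levels of the 10 genes was not tested.

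Melanocyte and neural crest genes were a mixed list. NL-1 and NL-8 were the top NL retinas for 3 of the 7 (42.9%), and the list summed to 5.86 to 7.60 FPKM in NL and 8.92 to 21.0 FPKM in LD. The higher sum in LD came from *Ednrb*, with a mean of 2.13 FPKM in NL and 9.50 FPKM in LD. The mean of *Sox10* was 0.299 FPKM in NL and 0.475 FPKM in LD. Those of *Mc1r* (1.49 and 0.449), *Kit* (1.11 and 1.01) and *Mitf* (1.85 and 1.71) were lower in LD. The differences of *Sox10* (limma, adjusted p = 0.191), *Kit* (adjusted p = 0.627) and *Mitf* (adjusted p = 0.503) did not pass the test. The defining genes *Pax3* and *Foxd3* were at 0 in 9 and 8 of the 10 retinas, whereas *Sox10*, which also marks neural crest cells, had 7 to 56 reads in every retina and was highest in NL-8 (0.711 FPKM, 2.59 times the NL median). *Ednrb* was called higher in LD (2.01 on the log2 scale, limma, adjusted p = 0.000258) and *Mc1r*, the melanocortin receptor, lower (-1.54, adjusted p = 0.00231). *Ednrb* is also a gene of Müller glia and of vessels, and *Mitf* and *Kit* are expressed by other retinal cells.

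The neural background of the retinas moved strongly with light. Rod and neural genes summed to 7158 to 8802 FPKM in NL and 1183 to 2250 FPKM in LD, with 4 of 8 called lower, among them *Gnat1*, *Nrl* and *Sag*. Müller glia genes summed to 1063 to 1291 FPKM in NL and 578 to 811 FPKM in LD, with *Glul* called lower and *Vim* higher. The lower sum came mainly from *Glul*, with a mean of 711 FPKM in NL and 165 FPKM in LD. The mean of *Rlbp1* was also lower (135 and 98.5), and that of *Dkk3* was level (240 and 241). The means of *Vim* (25.5 and 104), *Slc1a3* (26.2 and 37.5) and *Aqp4* (29.0 and 31.1) were higher in LD. Blood genes (18.3 to 37.5 FPKM in NL and 8.38 to 24.5 in LD) had 0 of 4 called, and the lens list (12.0 to 14.6 and 24.4 to 64.6) had 1 of 3, the stress-responsive *Cryab*. FPKM is a share of the library, so levels of the 10 genes are relative to these shifts, and the part of the shifts in the differences given above was not tested.

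**Figure D5:**
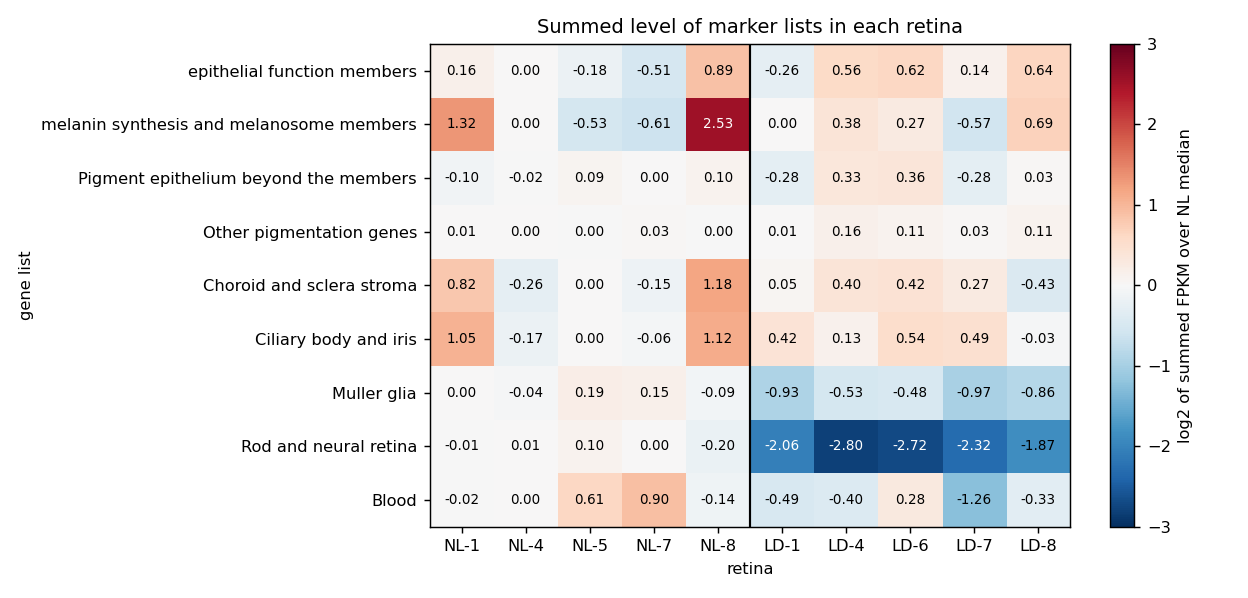
Log2 of the summed FPKM of each gene list over that of the median NL retina, with lists in rows and retinas in columns. The 6 melanin genes (2.53 and 1.32), the stroma list (1.18 and 0.82) and the ciliary body and iris list (1.12 and 1.05) are highest in NL-8 and NL-1, and the rod and neural list is below -1.8 in every LD retina.

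Because NL-1 and NL-8 stood apart in these genes and in the markers, the comparison was also run without both, an alternative chosen after their values were seen. It lowers the NL values by construction and leaves 3 NL and 5 LD retinas. Of the 10 genes 0 were called (background 5.5% of genes tested), and the differences of *Tyrp1* and *Pmel* shrank to 0.10 and -0.18 on the log2 scale (limma, adjusted p = 0.865 and 0.667). *Dct* moved to 0.60 (adjusted p = 0.391), *Ttr* to 0.60 (adjusted p = 0.101) and *Mlana* to 1.32 (adjusted p = 0.047), the 1 gene of the 10 under an adjusted p of 0.05, a limit that 21% of all genes passed in the same fit. Since *Mlana* had 1 to 4 reads in each of the 3 NL retinas left, its value rests on few reads. Leaving out NL-8 alone brought *Pmel* to -0.51 and *Tyrp1* to -0.47, and leaving out NL-7 alone brought them to -1.42 and -1.37.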

How the data were processed

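Total RNA of neural retinas from BALB/c mice, 5 NL and 5 LD, was sequenced in paired ends by a service provider, whose normalization gave the deposited gene values. Groups and replicate numbers came from the sample titles. The deposited values are FPKM per gene and retina. The submitters' processing notes name Bowtie2 2.0.6, TopHat2 2.0.9 and the build mm8, without roles, while 98.3% of the gene positions in the table match GRCm38, which is used here. The counting program, use of strand and gene annotation are not given in the sources used here. Reads per gene were recovered from FPKM and gene length, as whole numbers within 0.01, and 1 read in 1 kb was worth 0.0388 to 0.0493 FPKM, which limits the precision of low genes.

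Genes that reached 0.1 FPKM in 5 or more retinas were tested with limma 3.58.1 (R 4.3.3) with an intensity trend on log2(FPKM + 0.1), with Benjamini-Hochberg adjustment over all 24508 of them. A call needed an adjusted p under 0.01 and more than a 2-fold difference. Single genes were also compared with a 2-sided exact permutation test over retinas. The code was tested on simulated data. The alternatives were other pseudocounts, filters, scalings and thresholds, retinas left out, close pairs averaged, and shared replicate numbers with and without a block. Limma-voom and the fit without NL-1 and NL-8 were added after the data were seen.

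The 10 genes and the marker lists were chosen with earlier results of these data known. The text names all 10 genes, the listed genes that were called, except some that are not reported here, and *Rpe65*, *Lrat*, *Rlbp1* and *Mitf*. It also gives the most similar genes by Pearson r, and a few further listed genes picked out after their values were seen. Promoter sequences came from RefSeq.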

Additional observations from a re-analysis of the deposited data

Results flagged for a closer look

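In 2 of the 20 sets of 5 retinas looked at (10 genes in NL and in LD), 1 retina stood apart from the others by Dixon's criterion, the gap to the nearest retina divided by the whole range. Chance flags about 1 in 20 such sets, so 1 was expected. *Tyr* in NL-8 was at 0.605 FPKM, with the nearest NL retina at 0.224 FPKM and a gap of 0.745 of the range. *Pmel* in NL-8 was at 8.69 FPKM, with the nearest NL retina at 2.02 FPKM and a gap of 0.824 of the range. These ratios were taken on FPKM. On log2(FPKM + 0.1), the scale of the tests, they were 0.60 for *Tyr* and 0.56 for *Pmel*, neither past the limit, and the 1 set of 20 past it was *Rgr* in LD, where LD-1 (4.19 FPKM) was the low retina with a gap of 0.754 of the range. Both values in NL-8 came from the same library, in which *Tyrp1* (7.70 FPKM) and *Mlana* (4.23 FPKM) were also highest, but for these genes NL-1 lay closer.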

How the results depend on the processing

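Under every alternative run, 0 of the 10 genes were called changed. The number of all genes called was 1595, and 1379 to 1603 when each retina was left out in turn. It was 816 with a pseudocount of 1, 808 with the shared replicate numbers as a replicate block (1182 in the same 8 retinas with no replicate block) and 6818 at an adjusted p under 0.05 with no minimum fold. Deviations of same-numbered retinas correlated at 0.057, 0.066, -0.012 and -0.089 for numbers 1, 4, 7 and 8, so the numbers were not taken to pair the samples.

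Of the log2 differences recomputed for the 10 genes, 30 changed sign and 195 did not. *Best1* (0.12) went to -0.0007 with close pairs averaged and ranged from -0.0192 to 0.31 with 1 retina left out. *Stra6* (-0.01) went to 0.12 without the factor per library and 0.26 without NL-1 and NL-8 (-0.10 to 0.11 with 1 retina left out). *Dct* (-0.05) went to 0.0768 and 0.60 (-0.34 to 0.31). Without NL-1 and NL-8, *Tyr* went to 0.0505 and *Tyrp1* to 0.10. *Mlana* (0.01) went to -0.21 with a pseudocount of 1, -0.0139 with quantile normalization, -0.59 in the shared numbers with and without the replicate block, and -0.40 with close pairs averaged (-0.51 to 0.64). *Slc45a2* (0.13) went to -0.0782 in the shared numbers with and without the replicate block and -0.0656 with close pairs averaged (-0.12 to 0.29). The cause was not tested. The adjusted p of *Pmel* ran from 0.126 to 0.667 over the alternatives and that of *Mlana* from 0.047 to 0.995. *Best1*, *Tyr*, *Pmel*, *Mlana* and *Slc45a2* had no value under the filter of 1 FPKM. The planned edgeR and DESeq2 fits were not run, since the deposited values are FPKM.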
